A study of Psammomys obesus with 8 samples.

Results

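Bdnf encodes brain-derived neurotrophic factor, and Ntrk2 encodes its receptor tyrosine kinase TrkB. Methyl-CpG capture over both genes was examined in hypothalamus from males of *Psammomys obesus*, a desert rodent called the sand rat that gains weight and becomes diabetic on energy-rich food. Members were the contigs, assembled stretches of sand rat DNA, whose best mouse match lay inside either gene (distance 0 to the gene in the contig name). This gave 10 contigs in Bdnf and 14 in Ntrk2, or 24 of the 548060 contigs of the table and of the 125082 that lay inside a mouse gene. The rule reads contig names and no counts, but it was chosen with earlier results of these data known. Both groups were offspring aged 16 weeks with 4 libraries each. Their sample titles read "Low-Low lipid" and "Standard-Low lipid", called low-low and standard-low here. The titles thus share the second term, low lipid, and do not say what it refers to. The labels give the diet of the low-low group as "Low lipid" and of the standard-low group as "Standard Lipid". The design text attributes the difference to the fathers' diet, and the series title speaks of parents. Beyond these diet terms no genotype or other treatment is named for either group. The labels do not say that the replicates of a group are separate animals or litters. P-values therefore measure the spread between these libraries, which may be technical.

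BDNF is a secreted growth factor that is made as a precursor, cleaved, and released by neurons in an activity-dependent manner. It binds TrkB, whose intracellular kinase domain then recruits adaptors that activate the MAP kinase, PI3 kinase and phospholipase C gamma pathways, while a truncated TrkB form without the kinase is also made, largely in astrocytes. In the hypothalamus BDNF acts downstream of the melanocortin receptor MC4R to restrain feeding, and loss of either BDNF or TrkB function causes overeating and obesity in mice and humans. Bdnf has several promoters with separate first exons and one coding exon near its 3' end, and methylation of its promoters has been studied in neurons.

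MethylMiner capture uses the methyl-CpG binding domain of MBD2 to pull down double-stranded methylated DNA. A count therefore reflects methylation together with the number of CpG sites and the amount of DNA present, and no unenriched input was used here. Counts summed over all contigs were 12528388 to 13533441 per low-low library and 11646180 to 12156525 per standard-low library. Standard-low 4 held the most mitochondrial reads, 291 CPM (counts scaled by library total and TMM factor) against 87.4 to 171 CPM in the other libraries. Over all contigs, standard-low 2 and 3 differed most of the pairs within a group, with a chi-square of 1.93 per contig. Pairs of low-low libraries had 1.24 to 1.30. Capture gives no expression, so the labelled tissue could not be checked by its transcripts. Of 35 marker loci of neurons, astrocytes, oligodendrocytes, microglia and endothelium, 29 had a contig. Their summed counts gave 0 calls in edgeR's quasi-likelihood test with Benjamini-Hochberg adjustment, and 2 had an unadjusted p under 0.05, where 0.00524% and 6.03% of all genes did so. Standard-low was higher at 9 and lower at 20, where 41.4% of all genes were higher. It was higher at 3 of 8 neuron, 2 of 6 astrocyte, 1 of 6 oligodendrocyte, 0 of 5 microglia and 3 of 4 endothelium loci. Of all marker contigs 7.24% had an unadjusted p under 0.05, and 19.4% of the 36 in oligodendrocyte loci, against 5.68% of all contigs.

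The sequences behind the main points below are shown first. The first 3 lines come from protein-coding parts of the genes and from the most captured Bdnf contig, as deposited, with each CpG, the site that can be methylated, in capitals. Each is the 150-base window of its contig with the most CpG, 11, 8 and 11 in order.

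Bdnf contig 155183: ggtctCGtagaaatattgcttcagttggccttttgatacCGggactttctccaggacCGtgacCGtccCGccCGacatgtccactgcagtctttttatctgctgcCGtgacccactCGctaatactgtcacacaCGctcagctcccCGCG
Bdnf contig 888759: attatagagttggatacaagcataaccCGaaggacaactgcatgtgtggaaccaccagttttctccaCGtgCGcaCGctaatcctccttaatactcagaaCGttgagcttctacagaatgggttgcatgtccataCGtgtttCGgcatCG
Ntrk2 contig 906314: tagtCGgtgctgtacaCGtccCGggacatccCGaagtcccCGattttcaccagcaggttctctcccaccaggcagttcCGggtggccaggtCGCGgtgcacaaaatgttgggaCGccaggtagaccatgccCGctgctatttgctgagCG

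Contig 155183 aligned to mouse chr2:109723809-109724121 on the minus strand over all of its 313 bases, and 309 of them formed a single frame without a stop codon. Read on the other strand, the printed window encodes the start of mature BDNF, the part that binds TrkB. Contig 906314 aligned to mouse chr13:59060244-59060607 on the minus strand and was open over 372 of its 373 bases. Its window encodes the catalytic and activation loops of the TrkB kinase. Contig 888759 aligned to mouse chr2:109708991-109709664 on the plus strand and had no open frame longer than 216 of its 695 bases. The mouse genome build was not given in the sources used here, and no exon annotation of that build was used.

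The next line is the reverse complement of part of Ntrk2 contig 174931, which aligned to mouse chr13:58878112-58878311 on the minus strand. It is shown because this contig had the lowest p of all members. The capitals mark 22 codons, of which 21 encode alanine, valine, isoleucine, leucine, methionine, phenylalanine, cysteine, tryptophan, glycine or tyrosine. The count does not set the contig apart, since the best stretches of contigs 68959 and 3917802 had 22 of 22. The stretch is taken as the membrane-spanning segment of TrkB from background knowledge of that protein.

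Ntrk2 contig 174931: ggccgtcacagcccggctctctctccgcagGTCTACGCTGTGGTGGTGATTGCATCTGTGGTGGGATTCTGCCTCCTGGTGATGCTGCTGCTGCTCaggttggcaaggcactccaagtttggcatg

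Capture over Bdnf as a whole did not differ between the groups beyond the spread between libraries. Summed over its 10 contigs, Bdnf had 17.6, 16.9, 20.5 and 19.7 CPM in low-low libraries 1 to 4, and 17.8, 18.8, 20.1 and 19.3 CPM in standard-low 1 to 4. The highest and the lowest value both lay in low-low, and the groups overlapped fully. Means were 18.7 ± 1.69 and 19.0 ± 0.943 CPM (SD, n = 4), which gives a log2 fold change (standard-low over low-low throughout) of 0.026 ± 0.089 (SE; adjusted p = 0.969 in edgeR). Its 95% interval, from -0.16 to 0.21 on the log2 scale, corresponds to 0.895 to 1.16 times the low-low level.

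The receptor gene gave a similar picture. Ntrk2 had 31.5, 36.1, 34.8 and 37.6 CPM in low-low libraries 1 to 4, and 37.3, 39.2, 35.4 and 32.6 CPM in standard-low 1 to 4. Low-low 1 was lowest and standard-low 2 highest, with standard-low 4 below 3 of the low-low libraries. The means of 35.0 ± 2.60 and 36.1 ± 2.82 CPM (SD, n = 4) differed by less than their spread (log2 fold change 0.047 ± 0.076, edgeR adjusted p = 0.932), with a 95% interval from 0.926 to 1.15 times the low-low level. Among all 19098 genes summed in this way, 0.00524% passed an adjusted p of 0.05, the median log2 fold change was -0.030 and 41.4% were positive. The value without standard-low 4, the library with the most mitochondrial reads, was 0.019 for Bdnf and 0.093 for Ntrk2.

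**Figure D1:**
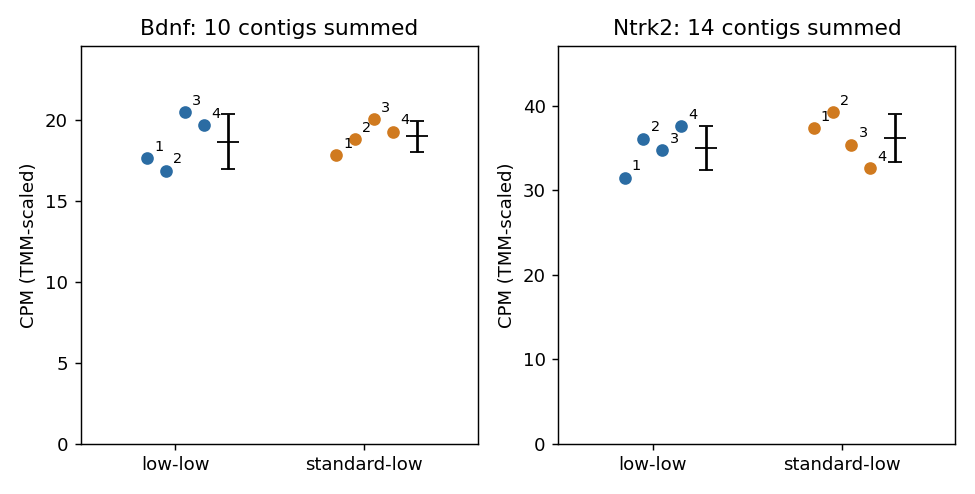
Summed capture over Bdnf (left) and Ntrk2 (right) in CPM, 1 point per library with its replicate number; bars give the mean and SD of the 4 libraries. Low-low ran from 16.9 to 20.5 CPM for Bdnf and from 31.5 to 37.6 CPM for Ntrk2, and standard-low overlapped with it in both.

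Per kilobase of contig both genes were captured to nearly the same degree, 3.21 ± 0.218 CPM per kb for Bdnf and 3.21 ± 0.233 for Ntrk2 (SD over 8 libraries). This was below the median of 3.65 CPM per kb over all genes, with 28.9% and 28.6% of genes lower. The rank is limited by contig length, since listed contigs had at least 81 counts, which sets a higher floor per kilobase for shorter ones. Median lengths were 587 bases in Bdnf and 772.5 in Ntrk2, against 518 for all contigs inside genes. The sums rest on 234 and 442 counts per library on average. Across the 8 libraries the Pearson correlation of log2 CPM of the 2 genes was 0.044. How much of their variation is counting error was not tested.

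Of the Bdnf contigs, 4 clustered at the coding sequence and 5 lay upstream of it. The last, contig 68959, lay 395 bases beyond contig 155183. Whether it belongs to the same exon was not assessed, since no exon annotation was used. The table places the end of Bdnf at 109727007, 1915 bases past contig 68959. Capture per kilobase differed widely along the gene, in no steady order. The most upstream contig, 3495269 at chr2:109684913-109685692, had the lowest level of all 24 members, 1.06 CPM per kb, with 9 CpG in 786 bases. Its 83 counts in all lay near 81, the fewest that any listed contig had. Contig 155183 had the highest level, 6.34 CPM per kb, with 18 CpG in 313 bases. Its CpG density was above that of 99.2% of contigs inside genes. No contig inside Bdnf lay upstream of 3495269, so the part of the gene before it was not measured here.

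**Figure D2:**
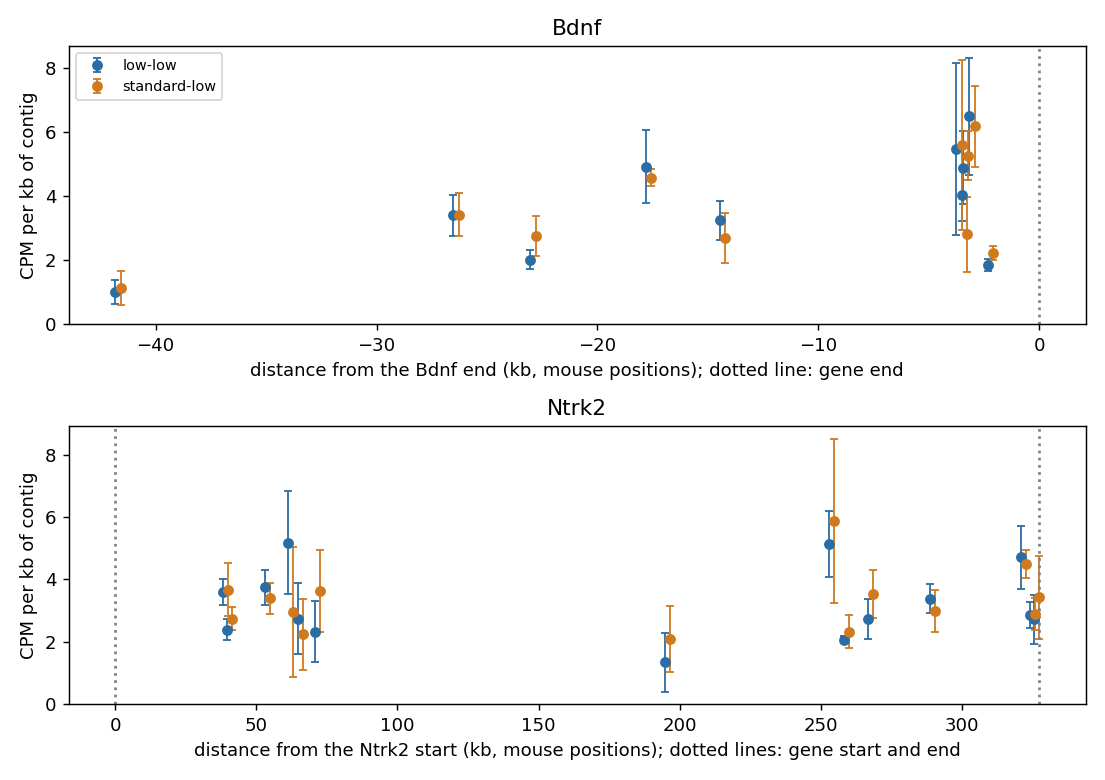
Mean CPM per kb of contig with SD over 4 libraries, by mouse position, for Bdnf (top, distance from the gene end) and Ntrk2 (bottom, distance from the gene start); the groups are shifted sideways for legibility. The highest Bdnf contig lies near its 3' end, and Ntrk2 has stretches with no contig at its start and in its middle.

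Upstream of the coding exon, contig 330191 at chr2:109703857-109704332 had the lowest p in Bdnf. It had 2.29, 1.78, 2.57 and 2.15 CPM in the low-low libraries, against 2.48, 2.45, 3.15 and 3.89 CPM in the standard-low ones. The highest low-low library lay above 2 standard-low libraries, so the groups overlapped. Its log2 fold change was 0.45 ± 0.21 (SE; unadjusted p = 0.0395, adjusted p = 0.869 in edgeR), and 0.30 without standard-low 4. Contig 888759, the most abundant Bdnf contig, had 3.06, 2.53, 4.33 and 3.76 CPM in the low-low libraries, against 3.08, 3.46, 3.15 and 3.04 CPM in the standard-low ones, with a log2 fold change of -0.098 ± 0.19. Contigs 3495269, 1191741 and 413670 had log2 fold changes of 0.17, 0.0048 and -0.26. Contig 413670 is weakly tied to Bdnf, since only 28 of its 499 bases matched mouse.

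More than 1 contig sequence matched the same part of the mouse coding exon. Contigs 906291 (chr2:109723412-109723803, plus strand) and 3677033 (chr2:109723412-109723930, minus strand) matched the same mouse bases but were only 91.6% identical to each other over 393 aligned columns, with 29 mismatches and 4 gaps. Contig 3677033 also overlapped contig 155183, with 87.7% identity over 122 columns. Contigs 906291 and 155183 were closer to mouse, at 1.63 and 1.64 alignment bits per column against 1.19 for 3677033. An open frame covered 387 of the 389 bases of contig 906291 and 435 of the 521 bases of contig 3677033. Both ended in the same 34 bases as contig 4232165, which continues towards the upstream side. The lines below show 90 aligned bases, chosen for their number of differences, with the 9 that differ in capitals.

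Bdnf contig 906291: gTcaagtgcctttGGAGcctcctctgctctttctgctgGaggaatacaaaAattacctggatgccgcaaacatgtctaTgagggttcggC
Bdnf contig 3677033: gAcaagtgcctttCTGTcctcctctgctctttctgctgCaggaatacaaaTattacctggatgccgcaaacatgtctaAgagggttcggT

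Whether the second sequence is another copy of the exon or an assembly product was not tested, and the sources used here do not say how reads matching both were placed. Contig 906291 had 1.15, 1.71, 1.53 and 1.92 CPM in the low-low libraries, against 0.685, 1.01, 1.74 and 0.930 CPM in the standard-low ones. It was lower in 3 of the 4 standard-low libraries than in any low-low library, with standard-low 3 above 3 of them (log2 fold change -0.52 ± 0.29, adjusted p = 0.894, and -0.84 without standard-low 3, adjusted p = 0.533). Contig 3677033 had 2.14, 2.01, 2.73 and 3.30 CPM in the low-low libraries, against 3.34, 2.61, 2.49 and 2.54 CPM in the standard-low ones (log2 fold change 0.11 ± 0.21). Of the counts on both, contig 906291 took 38.4 ± 5.14% in the low-low group against 28.2 ± 9.92% (SD, n = 4), a difference that did not pass a two-sided exact permutation test (p = 0.114), which was added after the values were seen. Contig 155183, at 2.03 ± 0.569 and 1.94 ± 0.396 CPM, and contig 4232165, at 0.882 ± 0.434 and 0.902 ± 0.428 CPM, had log2 fold changes of -0.061 and 0.035. Without contig 3677033 the Bdnf sum had a log2 fold change of 0.013 (adjusted p = 0.987).

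Contig 68959, downstream of contig 155183, had 1.30, 1.56, 1.44 and 1.23 CPM in the low-low libraries. The standard-low ones had 1.88, 1.69, 1.49 and 1.61 CPM. Standard-low 3 lay below low-low 2, and the other standard-low libraries lay above all of low-low. The log2 fold change was 0.27 ± 0.26 (adjusted p = 0.952). A pair of contigs beyond the gene, 8773 and 18050 bases from its end, had log2 fold changes of 0.041 and 0.22.

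In Ntrk2, which spans 327375 bases by the limits that the table's distances imply, the contigs fell in 2 clusters. The first 38671 bases from the gene start had none, and a further 123994 bases between contigs 174931 and 2202449 had none either. The table lists only contigs with at least 81 counts in all, so an empty stretch means no listed contig with a mouse match and not zero methylation. Capture per kilobase ran from 1.72 CPM per kb for contig 2202449 to 5.51 for the kinase contig 906314.

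The upstream cluster held 6 contigs. Contig 3890475 at chr13:58860082-58861039, the longest member with 2069 bases and 61 CpG, had 6.80, 7.87, 6.98 and 9.37 CPM in the low-low libraries, against 6.42, 7.76, 7.96 and 5.92 CPM in the standard-low ones. The ranges overlapped, with a log2 fold change of -0.15 ± 0.15. Contigs 2257715, the first by position, and 656776 had 4.12 ± 0.489 and 1.87 ± 0.260 CPM in low-low against 4.20 ± 0.977 and 2.15 ± 0.288 in standard-low (SD, n = 4). Contig 1955 had 1.63 ± 0.676 and 1.33 ± 0.675 CPM. Of the members, 6 held a 20-base word found in at least 10 other contigs of the table. The most widespread word of contig 3890475 occurred in 29083 others, that of 3917802 in 2206, that of Bdnf contig 68959 in 1023, and those of 730261, 2766676 and Bdnf contig 413670 in 29, 21 and 12. Reads from such parts cannot be told apart by these counts.

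The contig with the membrane-spanning segment, 174931, had 0.458, 1.56, 1.44 and 1.38 CPM in the low-low libraries, against 2.40, 1.27, 2.57 and 1.35 CPM in the standard-low ones. Standard-low 1 and 3 were high, low-low 1 was low, and the other 5 libraries lay together. The log2 fold change of 0.64 ± 0.29 had the lowest unadjusted p of the members, 0.0269, and an edgeR adjusted p of 0.851. It was 0.37 without low-low 1. Contig 730261, separated from it by contig 1955, had a negative value, with 1.38, 0.817, 0.803 and 1.46 CPM in the low-low libraries, against 1.2, 0.422, 0.166 and 0.761 CPM in the standard-low ones (log2 fold change -0.81 ± 0.37, unadjusted p = 0.0342, adjusted p = 0.860). Standard-low 3 was the lowest and standard-low 1 lay within low-low, and the value ran from -1.30 without standard-low 1 to -0.49 without standard-low 3. Only 40 of the 215 bases of contig 730261 matched mouse, and one of its 20-base words occurred in 29 other contigs of the table, so its place in Ntrk2 rests on little sequence.

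Between the clusters, contig 2202449 had 0.306, 1.11, 1.53 and 0.384 CPM in the low-low libraries, against 0.856, 2.19, 1.41 and 0.761 CPM in the standard-low ones. It varied most of all members, with a coefficient of variation of 59.0% over the 8 libraries, and its log2 fold change of 0.65 ± 0.35 (adjusted p = 0.891) ran from 0.29 without standard-low 2 to 1.1 without low-low 3. It held 12 CpG and 13.1 counts per library on average.

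Of the 7 contigs in the downstream cluster, the kinase contig 906314 had 2.37, 1.78, 1.44 and 2.07 CPM in the low-low libraries, against 2.82, 1.35, 3.23 and 1.35 CPM in the standard-low ones. The standard-low libraries split into 2 above and 2 below all of low-low, and the log2 fold change was 0.19 ± 0.25. Contig 2766676, with 43 CpG, had 2.06, 2.67, 3.05 and 3.69 CPM in the low-low libraries, against 3.08, 4.72, 3.07 and 3.97 CPM in the standard-low ones (0.37 ± 0.20, adjusted p = 0.886). Standard-low 2 and 4 lay above all of low-low, and the other libraries overlapped. Contigs 2190655, 317417 and 694867 had log2 fold changes of 0.17, -0.068 and 0.0050, contig 3917802 had -0.18, and the last by position, 2751869, had 0.32. Contig 2190655 matched mouse over only 73 of its 1006 bases.

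Across all 24 members, 0 contigs passed an adjusted p of 0.05 in edgeR's quasi-likelihood test, against 0.0268% of all contigs. At an unadjusted p under 0.05 there were 3, 330191, 730261 and 174931, and the share over the table was 5.68%. With DESeq2 0 members passed after adjustment (0.00584% of all contigs) and 0 before it (2.28%). With limma voom 0 passed after adjustment (0.00912%) and 4 before it (5.56%). The groups did not overlap at 0 members and at 3.24% of all contigs. The log2 fold change was above 0 at 6 of 10 Bdnf and 9 of 14 Ntrk2 contigs, with medians of 0.020 and 0.10, where 50.3% of all contigs were positive with a median of 0.0017. The 125082 contigs inside genes, the set to which the members belong, had a median of -0.017.

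**Figure D3:**
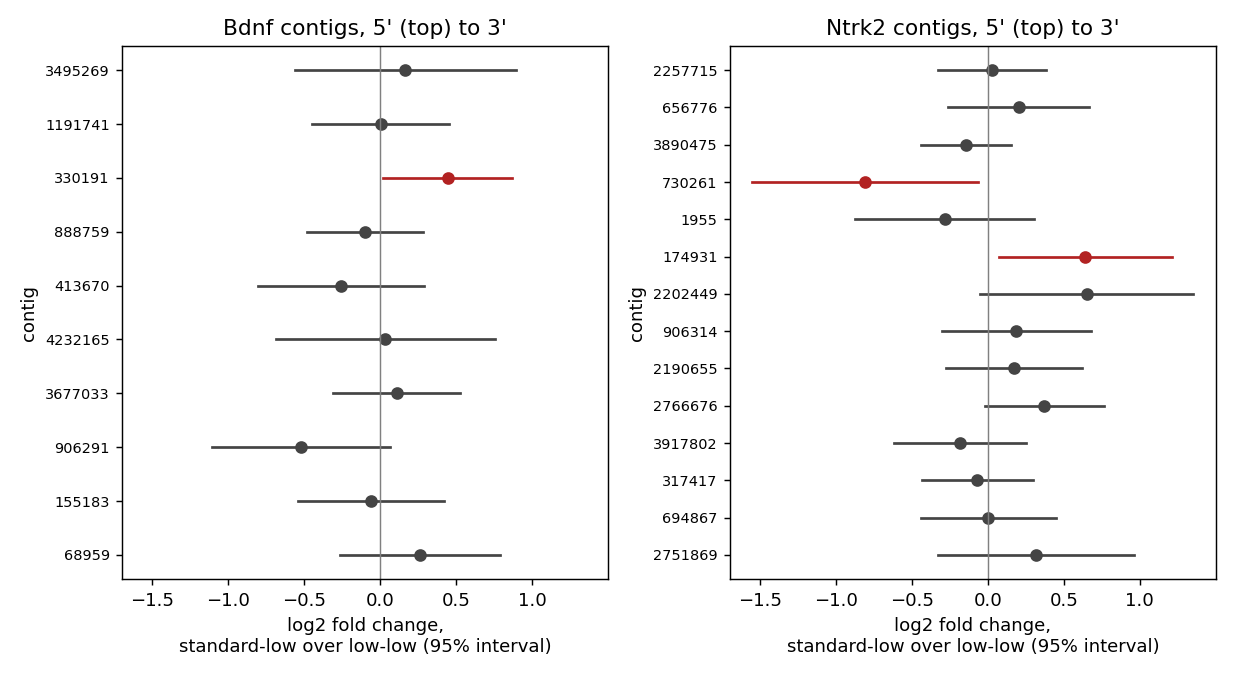
Log2 fold change of each Bdnf (left) and Ntrk2 (right) contig with its 95% interval, ordered by mouse position; red marks an unadjusted p under 0.05. The values run from -0.52 to 0.45 in Bdnf and from -0.81 to 0.65 in Ntrk2, and 0 of the 24 passed after adjustment.

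The distribution of reads along Ntrk2 was compared without scaling between libraries, as percentages of each library's Ntrk2 counts in equal upstream, middle and downstream segments of the span of its contigs. The upstream segment, with 6 contigs, took 51.2, 47.7, 52.9 and 50.7% in low-low and 47.7, 49.0, 49.9 and 43.5% in standard-low. Standard-low 4 was lowest, and the other 3 standard-low libraries lay within or next to the low-low range. Means were 50.6 ± 2.15 and 47.5 ± 2.82% (SD, n = 4; two-sided exact permutation p = 0.114, where 0.0286 is the smallest that 4 against 4 can give). The downstream segment, with 7 contigs, took 47.0 ± 2.90% and 48.9 ± 4.03% (exact permutation p = 0.486). The middle segment held contig 2202449 alone.

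Among the 24 contigs, those with more CpG collected more reads. The Pearson correlation of CpG number and mean count was 0.87 and Spearman's rho 0.77 (n = 24), and r was 0.69 over the 23 contigs without 3890475. Contig length, which both quantities share, had an r of 0.85 with the mean count. Per 100 bases, CpG density and CPM per kb had a rho of 0.59, against 0.51 over all 125082 contigs inside genes. The minimum of 81 counts for a listed contig sets a floor on CPM per kb that is higher for shorter contigs. Densities ran from 1.15 to 5.75 CpG per 100 bases in Bdnf and from 1.93 to 4.56 in Ntrk2, where the median inside genes was 2.26. Of the members, 14 lay above that median in CpG density but 9 above the median in CPM per kb. The ratio of observed to expected CpG was highest in contig 155183, at 0.867, and lowest in Ntrk2 contig 2190655, at 0.345.

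**Figure D4:**
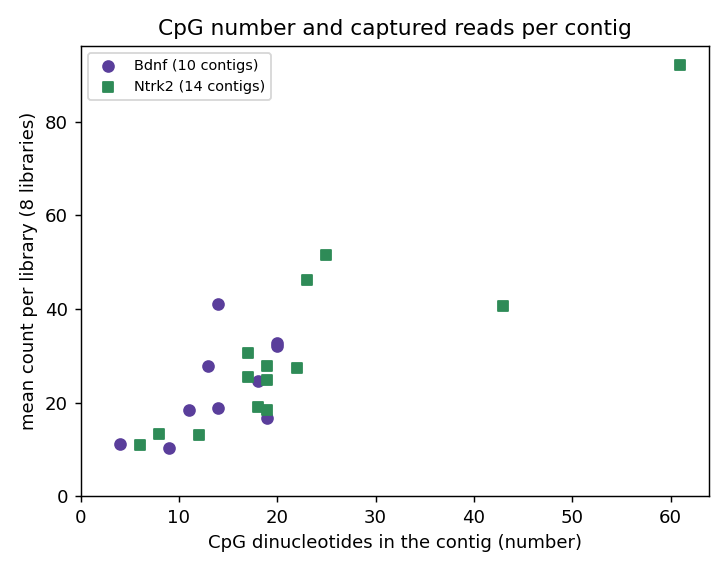
Number of CpG dinucleotides in each contig against its mean count over 8 libraries, for Bdnf (circles) and Ntrk2 (squares). Counts increase with CpG number, and contig 3890475, with 61 CpG, stands far from the others.

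The cAMP response element binding protein CREB1, an activator of Bdnf transcription, binds a site whose core, CGTCA or its complement TGACG, contains a CpG. In Bdnf 3 contigs held this core, 1191741, 3677033 and 906291, and contigs 155183 and 888759 held none. Contigs 3677033 and 906291 matched the same mouse bases, and whether they share a single site was not assessed. Of contigs inside genes within 10% of the length of 906291, 28.2% held one, and for 3677033 and 1191741 it was 34.9% and 40.5%. In Ntrk2, 3890475 and 2766676 held 4 each, where 85.5% and 58.7% of contigs of like length held at least 1. A match in these letters is a description and not a binding site.

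The other genes of the neurotrophin pathway were read in the same fit of summed counts. The list of 65 genes had contigs inside 64, with Ntf5 without any. In edgeR 0 genes passed in either direction, 29 had a positive and 35 a negative log2 fold change, and the median was -0.015. At an unadjusted p under 0.05 there was 1 of 64, Creb1, against 6.03% of all genes, and 0 passed after adjustment with DESeq2 (0.0105% of all genes) or limma voom (0%). Groups without overlap were seen at 0 of these 64 genes, against 3.48% of all genes.

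Ntf3, a ligand that prefers the receptor TrkC, had 7.53 ± 0.813 and 6.97 ± 0.816 CPM in the low-low and standard-low groups (SD, n = 4). Ntrk3, the receptor TrkC, had 34.4 ± 1.23 and 35.3 ± 2.62 CPM. Per kilobase, Ntrk3 stood at 3.20 CPM per kb, next to Ntrk2.

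Ngfr, which encodes the shared low-affinity receptor p75, had 18.9 ± 0.727 and 17.6 ± 2.74 CPM. The sortilin family binds pro-neurotrophins and sorts BDNF or its receptors within the cell. Sort1 had 46.4 ± 2.50 and 45.5 ± 1.1 CPM, Sorcs1 31.2 ± 1.21 and 32.1 ± 3.24, Sorcs2 84.6 ± 4.08 and 82.0 ± 3.42, Sorcs3 61.6 ± 1.53 and 64.7 ± 3.74, and Sorl1 59.2 ± 3.03 and 58.3 ± 5.33. Adjusted p was 0.840 or more for this group.

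Among 10 genes for processing of the precursor, Pcsk1, a convertase of the regulated secretory pathway, had the lowest p, with 4.07 ± 0.287 and 4.82 ± 1.03 CPM (adjusted p = 0.827). Of 23 adaptors and signalling genes, Sh2b2, an adaptor of receptor tyrosine kinases, had both the lowest p and the highest capture per kilobase, 5.28 CPM per kb. It had 18.5, 20.9, 18.5 and 20.2 CPM in the low-low libraries, against 17.5, 10.8, 19.0 and 18 CPM in the standard-low ones. Standard-low 2 was far below the others. This was not particular to Sh2b2, since standard-low 2 was also the lowest library at Map2k2 (25.0 CPM). It was the highest at Kidins220 (14.5 CPM) and Ntrk2 (39.2 CPM). The log2 fold change of Sh2b2 was -0.26 ± 0.13 (adjusted p = 0.807), and -0.10 without standard-low 2.

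Of 19 regulators of Bdnf transcription, Creb1 had 6.11, 4.16, 4.98 and 3.99 CPM in the low-low libraries, against 5.73, 7.51, 6.71 and 5.66 CPM in the standard-low ones. Low-low 1 lay within standard-low, and the other low-low libraries lay below it. The log2 fold change was 0.41 ± 0.16 with an unadjusted p of 0.015 and an edgeR adjusted p of 0.807. Usf1, a factor that binds an E-box in a Bdnf promoter, had the highest capture per kilobase of this role, 4.85 CPM per kb, and Mc4r had 3.64 ± 0.734 and 3.58 ± 0.773 CPM.

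Over the 806 contigs of the list, 1 passed in edgeR, contig 2097530 assigned to Ptpn11, against 0.0268% of all contigs, and 42, or 5.21%, had an unadjusted p under 0.05, against 5.68% of all contigs. Only 29 of the 284 bases of that contig matched mouse, so its place in the gene rests on little sequence. It had 0.0764, 0.594, 0 and 0 CPM in the low-low libraries, against 1.8, 1.18, 1.66 and 1.77 CPM in the standard-low ones. The log2 fold change of 3.14 ± 0.46 (edgeR adjusted p = 2.73e-05) thus rests on a group with few counts, and it was 5.48 without low-low 2. The contig did not pass with DESeq2 or limma voom.

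**Figure D5:**
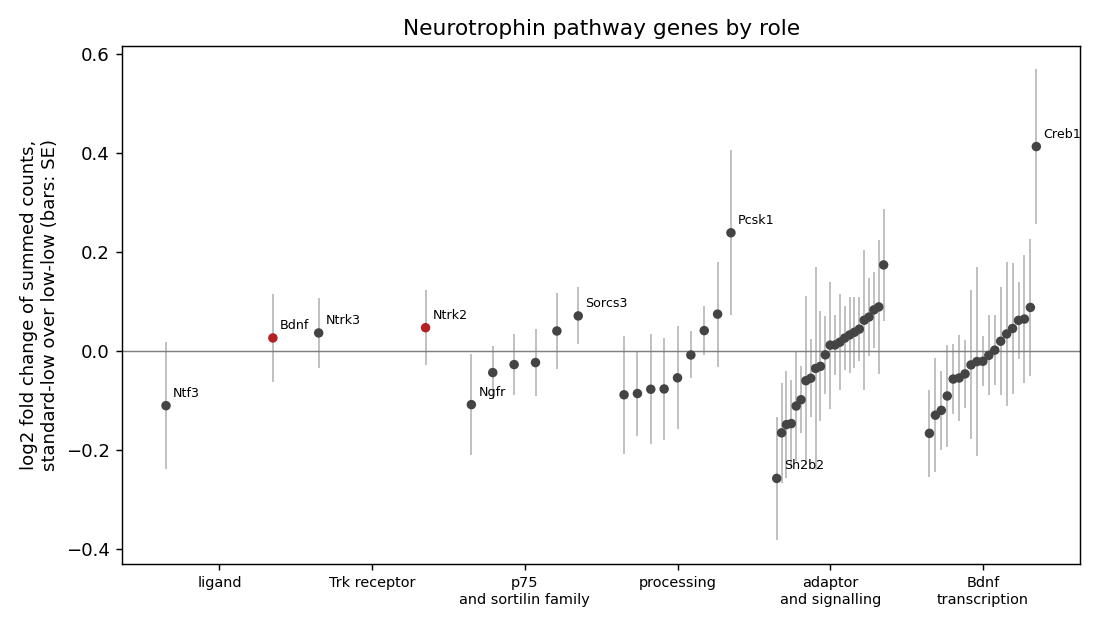
Log2 fold change of summed counts, with SE, for the neurotrophin pathway genes reported here, grouped by role; Bdnf and Ntrk2 are red. Values run from -0.26 for Sh2b2 to 0.41 for Creb1, and 0 passed after adjustment.

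The genes whose summed capture followed Bdnf most closely over the 8 libraries, by Pearson correlation of log2 CPM among 9264 genes with a mean of at least 100 counts, were Zdhhc23 (r = 0.97), Cep135 (0.97), Hn1l (0.92) and Gabra5 (0.92). For Ntrk2 they included AC133578.2 (0.96), Tshz1 (0.93) and Ssu72 (0.93). These are the best of many correlations over 8 points that share the libraries and their depth. Bdnf and Ntrk2 had 234 and 442 counts per library on average, and the share of counting error in their variation was not tested.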

How the data were processed

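MethylMiner libraries of 8 hypothalamus samples were analysed from a deposited table of raw read counts per contig, which the authors did not normalise as far as its whole numbers and unequal totals show. FastQC and BWA are named per the submitters' processing notes. Their versions, the assembler, the counting tool and the mouse build were not given in the sources used here. The header separates library names by spaces and the values by tabs, so columns were matched in header order. CPM values are counts scaled by library total and TMM factor. Mouse position, gene and distance were read from contig names.

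Counts were tested with edgeR 4.0.16 (TMM, glmQLFit, two-sided glmQLFTest, Benjamini-Hochberg over all contigs, threshold 0.05) in R 4.3.3, and counts summed over contigs at distance 0 were tested over 19098 genes with the factors of the contig table. A minimum mean of 10 counts removed no contig. On counts simulated for 19098 genes, a small random subset was changed, and 46% of 1.5-fold and 94% of 2-fold changes were recovered. On counts simulated for 548060 contigs in the same way, these were 4% and 24%. The spread between simulated libraries was preset and not estimated from these data, so recovery in the real counts may differ. Shares were compared by exact permutation over 70 relabellings. Contigs were compared with BLAST 2.17.0. Alternatives used DESeq2 1.42.0, limma 3.58.1 voom, other factors and filters, and single libraries left out.

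Named were all Bdnf contigs; the 8 Ntrk2 contigs highest in CPM, the 5 with the largest change each way, those with an unadjusted p under 0.05 and the first and last; ligands, receptors and sortilins; in every other role the gene with the lowest p and the one highest per kilobase, Ptpn11 and Mc4r being named after their values were seen; and the 4 genes most correlated with each member. Members, lists and rules were chosen with earlier results of these data known. Some genes that this rule names are not reported here.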

Additional observations from a re-analysis of the deposited data

Results flagged for a closer look

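A single library stood apart from the other 3 of its group at 2 of 56 groups of values, those of the 24 contigs, the 2 sums and the 2 shares, where chance flags about 1 in 20. Ntrk2 contig 174931 was at 0.458 CPM in low-low 1, with the next value in that group at 1.38 CPM. Bdnf contig 3677033 was at 3.34 CPM in standard-low 1, with the others from 2.49 to 2.61 CPM.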

How the results depend on the processing

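The Bdnf and Ntrk2 sums did not pass under any alternative, with log2 fold changes of 0.026 to 0.058 and 0.047 to 0.081 in 8 planned settings that kept all libraries. With 1 library left out they ran from -0.020 to 0.073 for Bdnf, negative without low-low 2 (-0.020) and without standard-low 3 (-0.0011), and from -0.00045 to 0.093 for Ntrk2, negative without low-low 1. With the replicate number as a block the values were 0.027 and 0.047. With 1 library left out, the difference of the upstream segment of Ntrk2 (-3.10 percentage points) ran from -4.07 to -1.76. That of the downstream segment (1.92) ran from 0.176 to 3.10. In 2 equal segments they were -3.10 and 3.10. The upstream one then held the same contigs as before, so its value could not change and the other was its complement. Exact sign flips within replicate numbers, the block for these shares, cannot move the differences of -3.10 and 1.92 and gave p = 0.25 and 0.5, where 0.125 is the smallest they can give. Under all settings run 0 of the 24 contigs and 0 pathway genes passed. Of the pathway contigs 1, in Ptpn11, passed in each fit without a library, and 0 pathway contigs passed with DESeq2, with limma voom, at a mean of 20 counts or with a match of at least 100 bits, the last 2 leaving it untested. Correlations of deviations of same-numbered libraries were -0.020, 0.072, 0.20 and -0.016. Those of differently numbered libraries ran from -0.22 to 0.10. So few values cannot settle whether the numbers pair the libraries. The 24 contigs had 10.4 to 92.1 counts per library on average. In simulated counts of 548060 contigs, with a small random subset changed and a preset spread, 24% of 2-fold changes were recovered.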

Other observations

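Outside the gene limits, 13 contigs were assigned to Ntrk2 by the table, 9 upstream and 4 downstream, and those named here were chosen after their values were seen. The nearest by its match, contig 2273719, lay 575 bases upstream of the gene start and was the closest measured point to the promoter. Only chr13:58805952-58806021 was matched, at 80.5 alignment bits, by a contig of 547 bases, so this place rests on little sequence. The contig had 1.38, 1.78, 1.36 and 0.845 CPM in the low-low libraries, against 1.54, 1.86, 2.24 and 1.35 CPM in the standard-low ones. The groups overlapped, with a log2 fold change of 0.38 ± 0.27 (SE; adjusted p = 0.926 in edgeR). Contig 477199, 38110 bases upstream, had 15 CpG in 186 bases and 12.1 CPM per kb, above each of the 24 contigs inside Bdnf and Ntrk2. Its match, chr13:58768433-58768486 at 62.1 bits, was also short, so its place is uncertain too. The contig had 2.06, 0.743, 1.69 and 2.15 CPM in the low-low libraries, against 3.42, 2.28, 4.31 and 1.35 CPM in the standard-low ones. Standard-low 4 lay within the low-low range and the other 3 lay above it (log2 fold change 0.78 ± 0.25, unadjusted p = 0.00294, edgeR adjusted p = 0.714).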
